A study of Homo sapiens with 8 samples.

Results

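MAPK feedback and early response genes are genes that the ERK branch of mitogen-activated protein kinase (MAPK) signalling switches on, many of whose products then restrain it. The 10 genes described here are the dual-specificity phosphatase genes DUSP4, DUSP5 and DUSP6, the Sprouty genes SPRY1, SPRY2 and SPRY4, their relative SPRED1, the ETS factor genes ETV4 and ETV5, and the zinc-finger factor gene EGR1. They were taken by name from the 18417 genes that had a probe set with that gene as its 1 symbol, and each of the 10 had 1 such probe set. Levels come from Affymetrix Human Gene 1.0 ST arrays, which report total RNA of 1 biotin-labelled sample each as a log2 intensity. Each of 4 groups had 2 arrays: A2780 without drug, A2780CP20 without drug, and A2780 after 24 h or 48 h of temsirolimus. A2780 is a human ovarian carcinoma cell line, and A2780CP20 is a subline of it known for resistance to cisplatin. Temsirolimus, a drug derived from rapamycin, blocks the kinase complex mTORC1. All cells were grown in RPMI medium with 10% fetal bovine serum. The drug came from a stock in DMSO, no source used here gives its dose, and the labels of the control arrays list no treatment and no vehicle.

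Growth factor receptors pass their signal through the adaptors GRB2 and SOS to RAS, and from there through the kinases RAF, MEK and ERK. ERK activity raises the transcription of immediate early genes such as EGR1 within minutes and of ETS factors such as ETV4 and ETV5 somewhat later. It also raises its own restraints: Sprouty and SPRED proteins act on the receptor-to-RAF steps, and dual-specificity phosphatases remove phosphate from the MAP kinases. In cancer cells the RNA levels of these genes are widely read as an output of ERK signalling.

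The arrays labelled 24 h stood apart from the other 6. Over all genes their r with each of those was 0.950 to 0.952, while r between the 48 h and the untreated A2780 arrays was 0.994 to 0.996. Untreated A2780CP20 lay closer to untreated A2780 (0.982 to 0.989) than the 24 h arrays did. The 24 h arrays were used under their label. Whether that label is right was not tested, so every difference given for 24 h is between arrays so labelled and may not be a response to the drug. Of 12 epithelial markers of ovarian carcinoma, 10 lay below the array median on each untreated array. Among them were EPCAM (5.26 to 5.68), CDH1 (5.19 to 5.76) and MUC16 (5.71 to 6.01). PAX8 lay near the median at 6.71 to 7.06, and KRT18 lay above it at 6.98 to 7.61. The summed level of the 12 epithelial markers was 78.5 and 79.9 on the 24 h arrays and 72.7 to 76.1 on the others. Against untreated A2780, 2 of the 12 were called higher at 24 h, KRT18 (2.94) and EPCAM (2.17), and 1 lower, ESR1 (-0.49), and the median difference of the list was -0.04. The summed level of 12 blood, endothelial and fibroblast markers was 81.0 and 81.8 on the 24 h arrays and 93.3 to 95.6 on the others. The large falls were in fibroblast markers. LUM measured 6.13 and 5.68 on the 24 h arrays against 10.25 to 11.55 elsewhere, COL3A1 8.44 and 8.61 against 11.95 to 12.21, and DCN 7.85 and 7.81 against 10.82 to 11.63. COL1A1 lay between 7.87 and 8.36 on all arrays. The endothelial markers PECAM1 (4.84 to 5.24), VWF (5.51 to 5.75) and CDH5 (5.30 to 5.65) also varied little. The blood marker PTPRC was higher on the 24 h arrays, at 4.48 and 4.54 against 3.84 to 4.08, and CD3E ran from 5.36 to 5.93. Of these 12 markers, 5 were called lower than in untreated A2780 at 24 h, 1 higher and 6 neither, where 30.1% of all genes were called. The median difference of this list was -0.055. The part of these marker shifts in the results below was not tested. In bulk RNA, fewer cells of a type and less RNA per cell cannot be told apart.

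By their label, the 24 h arrays address how A2780 cells answer a day of mTORC1 inhibition. Of the 10 genes, 8 changed on them at an adjusted p under 0.05, 3 higher and 5 lower, where 30.1% of all genes tested did (14.9% higher and 15.3% lower). The arrays of the 24 h and untreated groups did not overlap in these 8 genes and in ETV4, as in 66% of all genes. SPRY4 was 7.94-fold lower, SPRED1 2.08-fold lower and ETV5 1.57-fold lower than in untreated A2780, while SPRY2 was 3.92-fold higher and EGR1 3.19-fold higher. The genes therefore did not move in 1 direction, and the Sprouty family itself was split. The median log2 difference of the 10 genes was -0.21, and their median size of change without regard to sign was 0.57, against 0.01 and 0.20 over all genes. By mean level, DUSP4 stood at percentile 20.4 of all genes, DUSP5 at 51.9 and the others at 71.6 to 95.7. The part of level in this comparison was not tested.

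**Figure D1:**
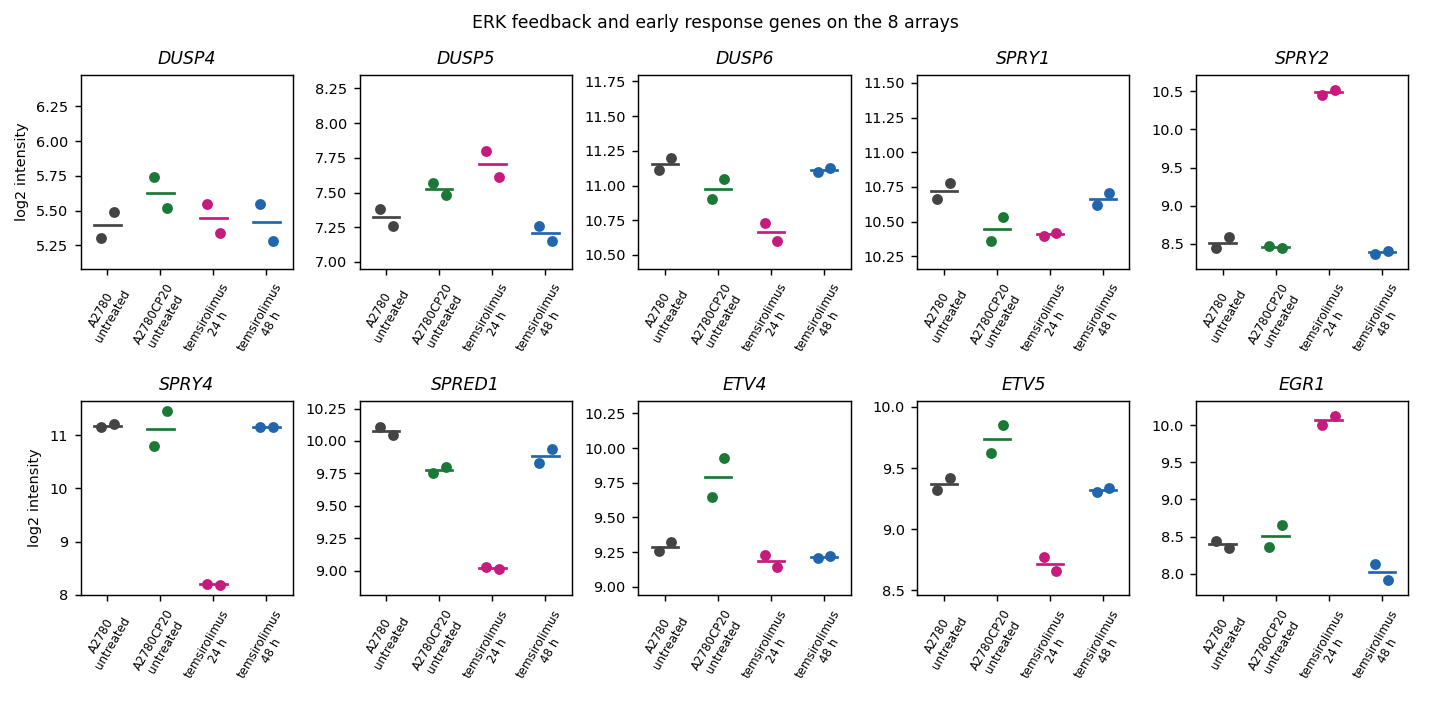
Log2 intensity (vertical axis, scaled separately for each gene) of the 10 genes on each of the 8 arrays; points are arrays and bars are group means of 2 arrays. SPRY4, SPRED1 and ETV5 sit low and SPRY2 and EGR1 sit high on the arrays labelled temsirolimus 24 h, while ETV4 and ETV5 sit high in A2780CP20.

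SPRY4 and SPRY2 encode membrane-associated inhibitors of receptor tyrosine kinase signalling and had the widest ranges of group means among the Sprouty genes. SPRY4 measured 11.15 and 11.22 on the untreated A2780 arrays and 10.79 and 11.45 on those of A2780CP20, against 8.20 and 8.19 on the 24 h arrays and 11.16 and 11.15 on the 48 h arrays. The 24 h arrays were the lowest and lay far from all others, while the other 3 groups overlapped. The log2 difference at 24 h was -2.99 ± 0.18 (limma estimate with its SE, 2 arrays in each group, adjusted p = 5.01e-06). SPRY2 measured 8.44 and 8.59 in untreated A2780 and 8.47 and 8.45 in A2780CP20, then 10.45 and 10.52 after 24 h and 8.37 and 8.41 after 48 h of drug. Here the 24 h arrays were the highest, and its log2 difference was 1.97 ± 0.09 (limma adjusted p = 9.99e-07). SPRY2 lies on chromosome 13, where 73.1% of 156 expressed genes were lower on the 24 h arrays, with a median of -0.46, so it moved against most genes of its chromosome. No other of the 10 genes lies there, and the medians of their chromosomes lay between -0.08 and 0.04.

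The promoters of SPRY2 and SPRY4 are shown because these genes moved furthest in opposite directions. Sequences are the 250 bases before the RefSeq transcription start, 5' to 3' on the gene's strand. Capitals mark CCGGAA, the core that many ETS factors bind, and GCGGGGGCG or GCGTGGGCG, forms of the site that EGR factors bind. Both strands were searched, and the GC-rich site reads CGCCCCCGC on the opposite strand.

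SPRY2 promoter, chr13:80341127-80341376, - strand, GRCh38.p14: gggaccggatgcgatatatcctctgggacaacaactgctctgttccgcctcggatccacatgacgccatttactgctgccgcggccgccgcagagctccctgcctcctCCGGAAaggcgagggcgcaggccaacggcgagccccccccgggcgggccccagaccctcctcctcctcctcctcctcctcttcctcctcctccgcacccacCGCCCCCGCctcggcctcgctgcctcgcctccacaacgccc

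SPRY4 promoter, chr5:142324248-142324497, - strand, GRCh38.p14: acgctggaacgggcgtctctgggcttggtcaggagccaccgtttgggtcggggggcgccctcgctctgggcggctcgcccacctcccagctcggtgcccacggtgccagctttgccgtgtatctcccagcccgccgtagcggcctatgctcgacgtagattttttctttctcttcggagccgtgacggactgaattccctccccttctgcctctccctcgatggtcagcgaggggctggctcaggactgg

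The SPRY2 window held 1 CCGGAA, whose bases lie 142 to 137 before the start, and 1 match to the EGR-type site, 41 to 33 before it. Neither set of letters was found in the SPRY4 window. Of 35116 RefSeq promoter windows of the same length, 14.5% held CCGGAA and 5.37% held the EGR-type site. RefSeq lists more than 1 start for SPRY2, and the outermost is shown. Windows 2 and 3 of SPRY2, before its other starts, held 0 matches to either set of letters. These matches describe the letters of the windows and are not measured binding sites.

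SPRY1, the third Sprouty gene, moved little. It measured 10.66 and 10.78 in untreated A2780 and 10.36 and 10.53 in A2780CP20, then 10.40 and 10.42 after 24 h and 10.62 and 10.71 after 48 h of drug. The 24 h arrays lay below both untreated arrays, at a log2 difference of -0.31 ± 0.10 (limma adjusted p = 0.0454). That call lay at the threshold: the adjusted p was 0.0830 without A2780 untreated replicate 1, 0.217 without its replicate 2, 0.179 without 24 h replicate 1, 0.154 without its replicate 2, 0.0720 without either 48 h array, and 0.0584 with median centring. SPRED1, which brings the RAS inactivator neurofibromin to the membrane, measured 10.11 and 10.05 in untreated A2780 and 9.75 and 9.80 in A2780CP20, then 9.03 and 9.01 after 24 h and 9.83 and 9.94 after 48 h of drug. It was lowest at 24 h, by -1.06 ± 0.09 (limma adjusted p = 4.00e-05), and no array of that group came near another group.

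The phosphatase genes differed by at most 1.40-fold at 24 h. DUSP6, whose cytosolic product is selective for ERK, measured 11.11 and 11.20 in untreated A2780 and 10.90 and 11.05 in A2780CP20, then 10.73 and 10.60 after 24 h and 11.10 and 11.13 after 48 h of drug. It was lower at 24 h by -0.49 ± 0.10 (limma adjusted p = 0.00550). DUSP5, whose nuclear product also acts on ERK, moved the other way. It measured 7.38 and 7.26 in untreated A2780 and 7.57 and 7.48 in A2780CP20, then 7.80 and 7.61 after 24 h and 7.26 and 7.15 after 48 h of drug, which gave 0.39 ± 0.10 at 24 h (limma adjusted p = 0.0234). RefSeq lists 2 pseudogenes named after DUSP5, so its values are uncertain. DUSP4, a nuclear phosphatase of ERK and JNK, was dim, with 8 values from 5.28 to 5.74. These lay just above the lower quartile of all 33297 probe sets on the arrays (5.03 to 5.13). Among the 18417 genes alone, its mean level stood at percentile 20.4, within the dimmest 25%. Its groups overlapped at 24 h (0.05 ± 0.14, limma adjusted p = 0.832). Signal over background is not known for these arrays, so a change of DUSP4 could be hidden there. The DUSP6 call was lost without 24 h replicate 2 (adjusted p = 0.0551), and that of DUSP5 without A2780 untreated replicate 1 (0.0556), without its replicate 2 (0.135) and without 24 h replicate 1 (0.175).

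ETV4 and ETV5 encode closely related ETS transcription factors of the PEA3 group, and their values differed between groups in different ways. ETV5 measured 9.32 and 9.42 in untreated A2780 and 9.62 and 9.85 in A2780CP20, then 8.77 and 8.66 after 24 h and 9.30 and 9.34 after 48 h of drug. It was highest in A2780CP20 and lowest at 24 h, where it fell by 0.66 on the log2 scale (standard error 0.11, limma adjusted p = 0.00183). ETV4 measured 9.26 and 9.32 in untreated A2780 and 9.65 and 9.93 in A2780CP20, then 9.23 and 9.14 after 24 h and 9.21 and 9.22 after 48 h of drug. It was also highest in A2780CP20, but at 24 h its difference was -0.11 ± 0.11 (95% interval of the fit -0.36 to 0.15, adjusted p = 0.542). Whether ETV4 and ETV5 differed from each other in their change was not tested.

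EGR1, an immediate early transcription factor, rose beside SPRY2 on the 24 h arrays. It measured 8.44 and 8.35 in untreated A2780 and 8.36 and 8.65 in A2780CP20, then 10.01 and 10.13 after 24 h and 8.13 and 7.91 after 48 h of drug. The 24 h arrays were highest and the 48 h arrays lowest, and A2780CP20 overlapped untreated A2780. The log2 difference at 24 h was 1.68 ± 0.13 (limma adjusted p = 2.00e-05). The promoter of EGR1 is shown because it is a textbook target of ERK through the serum response factor, which binds the CArG box. Capitals mark CArG boxes and TGACGT, the core of the cyclic AMP response element, which reads ACGTCA on the opposite strand.

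EGR1 promoter, chr5:138465229-138465478, + strand, GRCh38.p14: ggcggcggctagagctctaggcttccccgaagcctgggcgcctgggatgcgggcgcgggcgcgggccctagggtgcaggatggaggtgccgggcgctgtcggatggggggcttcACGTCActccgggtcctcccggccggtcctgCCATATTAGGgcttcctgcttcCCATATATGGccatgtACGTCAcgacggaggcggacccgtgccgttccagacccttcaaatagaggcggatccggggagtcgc

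The window held 2 CArG boxes, at 105 to 96 and at 83 to 74 bases before the start. It also held 2 copies of the cyclic AMP element core on the opposite strand, at 136 to 131 and at 67 to 62. A CArG box was found in 1.16% of all RefSeq windows of this length and the cyclic AMP core in 7.10%. RefSeq windows were held for 6 of the 10 genes (DUSP6, SPRY1, SPRY2, SPRY4, SPRED1 and EGR1), 9 windows in all, and EGR1 was the gene among them with either motif. The ETS core and the EGR-type site were found in a window of SPRY1 too, 67 to 62 and 28 to 20 bases before its start. At 24 h SPRY1 measured -0.31 and SPRY2 1.97, and any link between these letters and the levels was not tested. The AP-1 type letters TGANTCA, present in 6.57% of all windows, were in none of the 9.

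**Figure D2:**
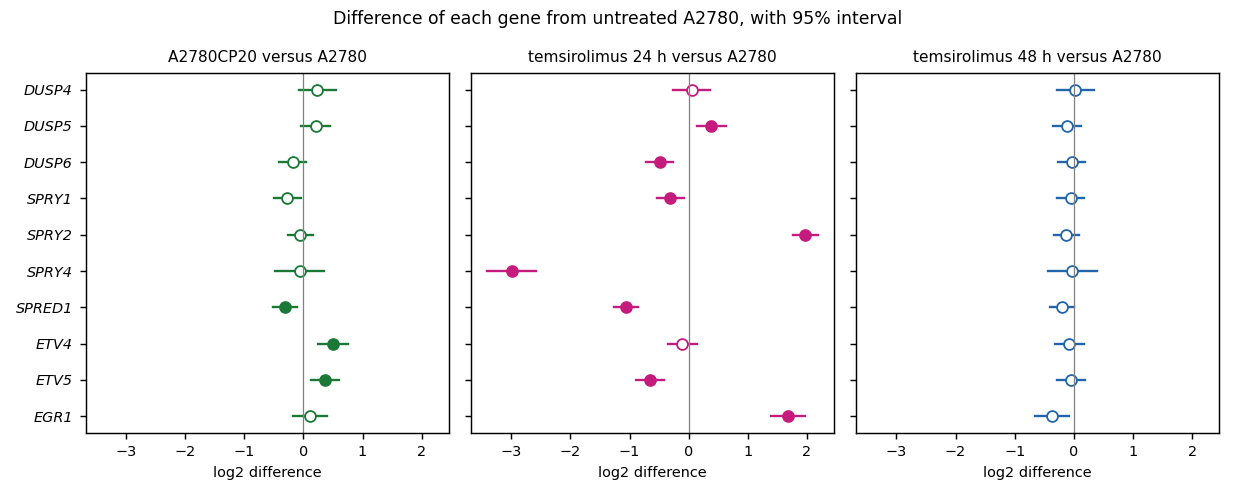
Log2 difference (horizontal axis) of each of the 10 genes from untreated A2780 in the 3 other groups; points are differences of means of 2 arrays, lines are 95% intervals of the limma fit, and filled points passed an adjusted p of 0.05. Filled points number 3 in A2780CP20, 8 at 24 h and 0 at 48 h.

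The comparison of the untreated lines asks how A2780CP20 differs from its parent. Here 3 of the 10 genes passed the test, where 18.4% of all genes did (6.37% higher and 12% lower): ETV4 and ETV5 were higher and SPRED1 was lower. ETV4 stood 0.50 ± 0.11 above untreated A2780 (1.41-fold, limma adjusted p = 0.0171) and ETV5 0.37 ± 0.11 above it (1.29-fold, adjusted p = 0.0467). SPRED1 measured -0.31 ± 0.09 (1.24-fold lower, adjusted p = 0.0468). For all 3 genes no A2780CP20 array overlapped an untreated A2780 array, which also held for 55.3% of all genes. The median log2 difference of this comparison was -0.045 over all expressed genes. It was -0.14 on chromosome 15 of SPRED1, 0.065 on chromosome 17 of ETV4 and -0.14 on chromosome 3 of ETV5. On chromosome 4 of SPRY1 it was -0.22, with 74.8% of 306 expressed genes lower, and on chromosome 13 of SPRY2 -0.25. The part of these chromosome shifts in the differences was not tested. SPRY1 (-0.28 ± 0.10, adjusted p = 0.0911), DUSP6 (-0.18 ± 0.10), DUSP5 (0.21 ± 0.10), DUSP4 (0.24 ± 0.14), EGR1 (0.11 ± 0.13) and SPRY2 (-0.06 ± 0.09) did not pass. SPRY1 passed without A2780CP20 replicate 2 (-0.36, adjusted p = 0.0321) and with an intensity trend in the prior (0.0394). SPRY4 differed by 0.66 between the A2780CP20 arrays themselves: its difference of -0.07 ± 0.18 was 0.27 without A2780CP20 replicate 1 and -0.40 without replicate 2, where it passed (adjusted p = 0.0161).

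None of these 3 calls held in a fit of the compared groups alone, where the adjusted p was 0.0812 for ETV4, 0.147 for ETV5 and 0.158 for SPRED1. Without A2780 untreated replicate 1 it was 0.0964, 0.194 and 0.182, and without its replicate 2 it was 0.0799, 0.125 and 0.138, in that order. ETV5 also lost its call without A2780CP20 replicate 2 (0.0938), without either or both 24 h arrays (0.0751) and without either 48 h array (0.0808), and SPRED1 without A2780CP20 replicate 1 (0.0878), without either or both 24 h arrays (0.0872) and without either 48 h array (0.0736). The A2780CP20 arrays differed more from each other over all genes (SD of log2 differences 0.287) than the arrays of any other group (0.166 to 0.181).

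At 48 h the 10 genes lay close to untreated A2780. None passed the limma test, where 0.179% of all genes did (0.163% higher and 0.0163% lower), and EGR1 was the 1 gene with an unadjusted p under 0.05, a level that 11.1% of all genes reached. EGR1 lay 1.3-fold lower (-0.38 ± 0.13, adjusted p = 0.342), with both 48 h arrays below both untreated arrays, a separation of groups that 46.8% of all genes had. SPRED1 followed at -0.20 ± 0.09 (adjusted p = 0.470). SPRY2 measured -0.13 (95% interval -0.34 to 0.09), SPRY4 -0.03 (-0.44 to 0.38), DUSP6 -0.04 (-0.26 to 0.18) and ETV5 -0.05 (-0.29 to 0.19). These intervals leave out changes of the size seen on the 24 h arrays for each of those 4 genes. The other 4 lay between -0.12 (DUSP5) and 0.02 (DUSP4).

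The change from 24 h to 48 h was tested directly, and 7 of the 10 genes passed, 4 higher and 3 lower at 48 h, where 31% of all genes did (15.2% higher and 15.7% lower). In all 7 the arrays of the groups did not overlap, as in 69.3% of all genes. SPRY4 was 7.78-fold higher at 48 h than at 24 h (2.96 ± 0.18, adjusted p = 5.38e-06), and SPRED1 (0.87 ± 0.09), ETV5 (0.61 ± 0.11) and DUSP6 (0.45 ± 0.10) were higher too. SPRY2 was 4.27-fold lower (-2.10 ± 0.09, adjusted p = 6.80e-07), EGR1 4.14-fold lower (-2.05 ± 0.13, adjusted p = 5.64e-06) and DUSP5 1.41-fold lower (-0.50 ± 0.10). This comparison shares the 24 h arrays with the one above, so its values are not independent of it. DUSP5 lost its call without 24 h replicate 1 (adjusted p = 0.0658) and without 48 h replicate 2 (0.0592), and DUSP6 without 24 h replicate 2 (0.0752) and without 48 h replicate 2 (0.0576). SPRY1 (0.26 ± 0.10, adjusted p = 0.0872) passed without either A2780CP20 array (0.0403), with the compared groups alone (0.0411) and with an intensity trend in the prior (0.0375).

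The genes around these 10 in the pathway were read from lists, whose counts at 24 h stand against 14.9% of all genes higher and 15.3% lower, 30.1% in all. In the ERK cascade itself, 2 of 17 measured genes were higher and 3 lower at 24 h, a share near that of all genes. The docking protein gene GAB1 (-1.22 ± 0.16) and the adaptor gene GRB2 (-0.47 ± 0.09) fell, and HRAS rose by 0.60 ± 0.11. SOS1, the exchange factor that loads RAS, measured -1.0 ± 0.30 (adjusted p = 0.0354), but its call was lost without either untreated A2780 array (0.109 and 0.151), either 24 h array (0.0999 and 0.133) and either 48 h array (0.0586). The median log2 difference of the list was 0.05, against 0.01 over all genes.

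Among 14 further restraints of the cascade, 3 were lower and 2 higher at 24 h (median -0.15), where 30.1% of all genes were called. SPRED2, the relative of SPRED1, fell by 0.71 on the log2 scale (standard error 0.13). RASA3, a RAS GTPase-activating protein gene, measured -1.04 ± 0.10, and NF1, the neurofibromin gene whose values are uncertain because of its pseudogenes, -1.0 ± 0.16. PEA15, which holds ERK in the cytoplasm, rose by 0.56 ± 0.09. Of 7 other MAPK phosphatase genes 1 rose and 1 fell (median 0.04), again near the 30.1% of all genes. DUSP2 stood at 0.93 ± 0.16. DUSP7 measured -0.32 ± 0.09, and its call was lost when any array of the untreated, 24 h or 48 h A2780 groups was left out (adjusted p = 0.0513 to 0.189).

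Of 15 other outputs of ERK, 5 were higher and 3 lower in the same comparison (median -0.08), where all genes gave 14.9% and 15.3%. ETV1, the third PEA3-group factor, measured 11.12 and 11.11 in untreated A2780 and 9.95 and 10.69 in A2780CP20, then 7.86 and 7.67 after 24 h and 10.67 and 10.76 after 48 h of drug. It was thus lowest at 24 h by -3.35 ± 0.20 (adjusted p = 5.22e-06), beside -0.11 for ETV4 and -0.66 for ETV5, a contrast between genes that was not tested. MYC measured -1.42 ± 0.13. The cytokine gene LIF, at 5.51 and 5.51 untreated and 7.35 and 7.73 at 24 h, rose by 2.03 ± 0.13, and the EGF-family ligand gene HBEGF by 1.08 ± 0.17.

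On a list of 28 other immediate early genes and regulators, 7 were higher and 4 lower at 24 h (median 0.09), where all genes gave 14.9% and 15.3%. The regulators counted in it were SRF, ELK1, ELK3, ELK4, NAB1 and NAB2. JUN, an AP-1 subunit gene, rose by 2.09 ± 0.10 beside EGR1, whereas its partner gene FOS differed by 0.16 ± 0.11 and did not pass (adjusted p = 0.362). Among their relatives on the list, JUND was lower (-0.49 ± 0.10, limma adjusted p = 0.00669), and JUNB, FOSB and FOSL2 did not pass. NR4A2, a nuclear receptor gene, fell to 6.03 and 6.01 from 7.02 and 6.92. Of 20 receptor and FGF ligand genes upstream of ERK, 3 were higher and 7 lower (median -0.10), against the same shares of all genes. The receptor genes FGFR1 (-1.38 ± 0.09) and IGF1R (-0.87 ± 0.09) and the ligand gene FGF18 (-2.39 ± 0.11) fell, and the ligand gene FGF2 rose by 1.78 ± 0.10, from 8.71 and 8.73 to 10.52 and 10.48.

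**Figure D3:**
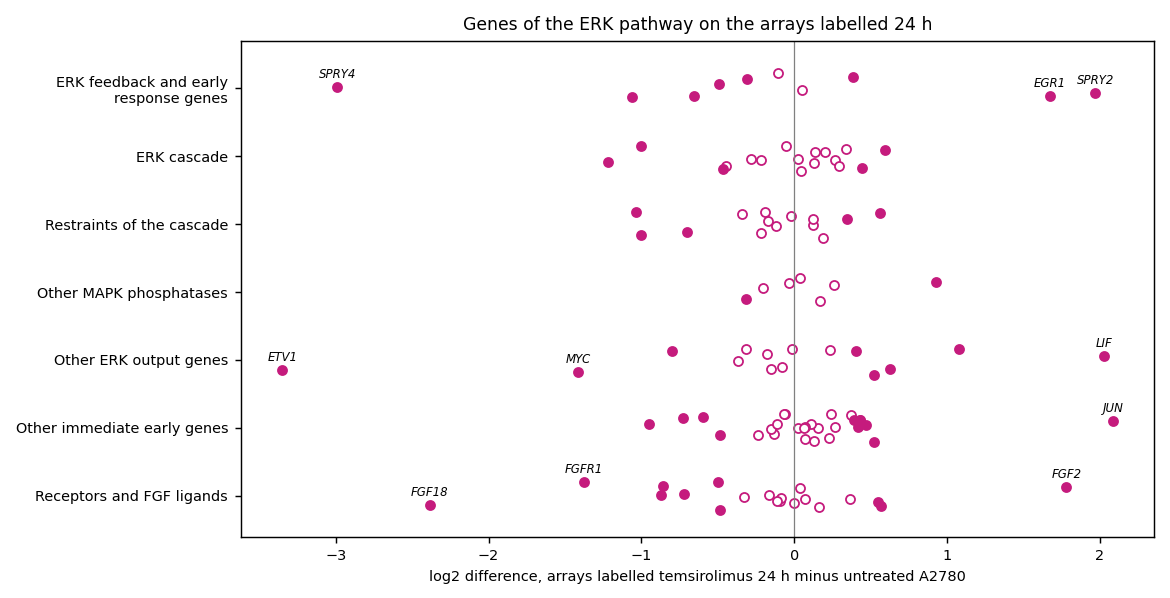
Log2 difference (horizontal axis) between the arrays labelled temsirolimus 24 h and untreated A2780 for each gene of the 7 lists; each point is a gene, vertical scatter within a row has no meaning, filled points passed an adjusted p of 0.05, and genes beyond 1.3 are named. Every row holds filled points on both sides of 0, with SPRY4 and ETV1 farthest to the left and JUN, LIF and SPRY2 farthest to the right.

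In A2780CP20 the same lists gave 2 higher and 2 lower of the 15 ERK outputs (median 0.10). Of the 28 immediate early genes and regulators, 3 were higher and 2 lower (0.13), and of the 17 cascade genes 5 higher and 1 lower (0.10). Higher genes numbered 2 of 14 restraints (-0.01) and 2 of 7 phosphatases (0.20). Of 20 receptors and ligands, 2 were higher and 2 lower (0.02). Over all genes the median was 0.03 and 18.4% were called, 6.37% higher and 12% lower. The counts of the immediate early list, the restraints and the receptors and ligands therefore lay near the share of all genes. The kinase gene MKNK2, which acts downstream of ERK, rose by 0.68 ± 0.10, DUSP7 by 0.61 ± 0.09, the sphingosine kinase gene SPHK1 by 0.88 ± 0.10 and FGFR4 by 0.74 ± 0.11, while EMP1 measured -0.98 ± 0.11. SPRED2 stood 0.60 ± 0.13 above untreated A2780 beside the lower SPRED1, and ETV1 measured -0.80 ± 0.20 beside the higher ETV4 and ETV5. Both calls were lost in a fit of the compared groups alone (adjusted p = 0.0693 and 0.0944) and without either untreated A2780 array (0.0986 and 0.0729 for SPRED2, 0.122 and 0.133 for ETV1), and that of ETV1 also without either 48 h array (0.0539).

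At 48 h, 2 genes of all these lists passed, SPHK1 and NR4A2, where 0.179% of all genes did. SPHK1 measured 8.23 and 8.25 in untreated A2780, 9.15 and 9.19 at 48 h, a rise of 0.93 ± 0.10 (limma adjusted p = 0.0132). It was also called higher than untreated A2780 at 24 h (0.52 ± 0.10, limma adjusted p = 0.00527) and in A2780CP20 (0.88 ± 0.10). NR4A2 measured 7.80 on both 48 h arrays, a rise of 0.83 ± 0.10 (adjusted p = 0.0228) where the 24 h arrays had been lower. MAP2K1, the MEK1 gene, measured -0.55 ± 0.11 without passing (adjusted p = 0.135). Without either untreated or either 48 h array the adjusted p was 0.156 to 0.205 for SPHK1 and 0.179 to 0.279 for NR4A2, and NR4A2 was also lost without either or both 24 h arrays (0.0715).

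The genes whose centred values over the 8 arrays lay nearest to those of the 3 members with the widest range were sought among all other genes. For SPRY4 they were STXBP5, TDRD3 and NRP2 (root mean square differences of 0.14, 0.17 and 0.17 log2 units). For SPRY2 they were GSAP, PLS1 and AKR1E2 (0.08, 0.09 and 0.09), and for EGR1 USP18, PLS1 and DENND11 (0.12, 0.16 and 0.16). All of these patterns are set by the 24 h arrays: NRP2, for example, averaged 10.16 in untreated A2780 and 7.34 at 24 h, and GSAP 4.57 and 6.65.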

How the data were processed

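The deposited table holds 1 column of log2 intensities for each of the 8 arrays, 33297 probe sets in all. The log2 scale was read from the range of the deposited values (1.8 to 14.99). Per the submitters' processing notes Partek was used; the labels give no version, background correction, normalization or probe set summary (not given in the sources). Array medians were 6.66 to 6.72. Probe sets were named through the platform annotation (19460 with 1 symbol, 1754 with several, 12083 unnamed here); the probe set with the highest mean stood for a gene, which left 18417 genes.

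Group means over the 8 arrays were fitted with limma 3.58.1 in R 4.3.3 and moderated by eBayes (4 residual and 4.48 prior degrees of freedom). Two-sided p-values were adjusted by Benjamini-Hochberg across 18417 genes, and an adjusted p under 0.05 made a call. The test was tested on simulated data. Groups came from the sample titles. No label says whether replicates came from separate cultures. The p-values therefore rest on the spread of these samples alone, possibly a technical one; the number of arrays limits the precision. The labels give no scan date or batch.

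The members and lists were chosen with earlier results of these data known. The rule for naming list genes took at most 4 called genes from each list and comparison. These were taken by size of change among those whose arrays did not overlap, or at most 2 by p if a list had no call. Some are left unnamed, and at 24 h FOS, FOSB, FOSL2, JUNB, JUND and SPHK1 were named after their values were seen. Chromosomes came from the RefSeq table of GRCh38.p14, where expressed means a mean above the median gene. Alternatives were quantile normalization, median centring, no dim genes, the mean of probe sets, each array left out, a replicate block, the compared groups alone, a trended or robust prior, and no 24 h arrays. Background correction was not varied, since scanner files were not used here.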

Additional observations from a re-analysis of the deposited data

Results flagged for a closer look

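The arrays labelled temsirolimus 24 h and 48 h differed, by the direct limma test of 48 h against 24 h, for 7 of the 10 genes. The difference (48 h minus 24 h, log2) was 2.96 for SPRY4, 0.87 for SPRED1, 0.61 for ETV5 and 0.45 for DUSP6, which were lower on the 24 h arrays, and -2.10 for SPRY2, -2.05 for EGR1 and -0.50 for DUSP5, which were higher there. Both groups had 2 arrays, and in all 7 genes the arrays of the groups did not overlap, as in 69.3% of all genes. The arrays labelled 24 h stand apart over all genes, and the part of this in these 7 differences was not tested.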

How the results depend on the processing

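Across 656 alternative values of the 10 genes, 595 kept their direction and side of the threshold. The counts of called genes at 24 h, at 48 h and for 48 h versus 24 h stayed within 1.5 times of 8, 0 and 7 in all alternatives; leaving out 1 array gave 6 to 8, 0 to 0 and 5 to 8. In A2780CP20 the count of 3 was 1 with median centring, 0 with the compared groups alone, 1 without both 24 h arrays, and 0 to 4 when 1 array was left out. With the replicate block the counts were 2 (A2780CP20), 8, 0 and 7; the number pairs nothing in the labels, and deviations of same-numbered arrays correlated at 0.002 to 0.181 between groups. The block changed no call of the 10 genes except SPRED1 in A2780CP20 (adjusted p = 0.0550), whose call also ended with quantile normalization (0.0822) and median centring (0.0534), as did that of ETV5 with median centring (0.0546).

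Direction turned in 14 values, none of them called. With quantile normalization SPRY2 in A2780CP20 was 0.014, and for 48 h versus 24 h DUSP4 was 0.033 and ETV4 -0.017. With median centring SPRY4 at 48 h was 0.01. Without A2780 untreated replicate 1 DUSP4 was -0.045 at 24 h and -0.075 at 48 h, and without replicate 2 SPRY2 in A2780CP20 was 0.02. Without A2780CP20 replicate 1 SPRY4 there was 0.27, and without replicate 2 EGR1 was -0.035. Without 24 h replicate 1 DUSP4 was -0.055 at 24 h and 0.075 for 48 h versus 24 h, and without replicate 2 ETV4 was -0.015 in the latter. Without 48 h replicate 1 DUSP4 was -0.12 at 48 h, and without replicate 2 it was 0.11 versus 24 h. Apart from fewer arrays or genes in the fit, the cause was not tested. DUSP4 was left out with the dimmest 25% of genes. Leave-one-out ranges were -0.13 to 0.02 for SPRY2, -0.40 to 0.27 for SPRY4 and -0.035 to 0.26 for EGR1 in A2780CP20. For DUSP4 they were -0.055 to 0.16 at 24 h, -0.12 to 0.16 at 48 h and -0.17 to 0.11 for 48 h versus 24 h.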
